A study of Mus musculus with 60 samples.

Results

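Peak lists of acetylated histone H4 lysine 8 (H4K8ac) and trimethylated histone H3 lysine 27 (H3K27me3) were set against each other in nuclei of the left hippocampus of sedentary mice. Genes were sorted by the official mouse symbol that the lists give each peak: a gene in the H4K8ac list alone, in the H3K27me3 list alone, or in both. The lists held 36425 H4K8ac peaks at 10221 genes and 14491 H3K27me3 peaks at 4668 genes. Together these were 50916 of the 256375 peaks in the 12 peak lists of the series, and 13035 of the 16994 genes named in any list.

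H4K8ac is a permissive mark, written by lysine acetyltransferases and read by bromodomain proteins, and it is found at active promoters, enhancers and gene bodies. H3K27me3 is a repressive mark, written by Polycomb repressive complex 2 through EZH1 or EZH2, and it can spread over broad domains at genes of other lineages, the Hox clusters among them. In differentiated neurons, Polycomb is known to keep developmental regulators and genes of other neuronal types silent, whereas acetylation accompanies synaptic and activity-regulated genes.

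The nuclei came from male offspring of Emx1-IRES-Cre females and NuTRAP males, in which Cre switches on a biotinylated nuclear envelope tag and a ribosome tag. Emx1-Cre acts mainly in excitatory neurons of the forebrain, but also in progenitors and possibly in some astrocytes. The tagged nuclei were pulled down and profiled by CUT&RUN, in which a nuclease tethered to an antibody releases the DNA around each mark. Sedentary mice stayed in standard cages from postnatal day 21 to 41, whereas exercised mice had a running wheel over the same days. Each mark had 3 libraries, prepared with 3 IgG control libraries as aliquots of the same nuclei. The other 5 pairs of lists came from sedentary right hippocampus, from exercised left and right hippocampus, and from the combined hippocampi of sedentary or exercised mice isolated by SIT, the simultaneous isolation of nuclei and translating RNA. The pairs differed in the libraries behind them. The SIT groups had more libraries per mark by their labels, but the authors' figure legends give fewer mice for SIT than these labels do. Which libraries stand behind the SIT lists is therefore uncertain. The authors also left out some exercised H4K8ac libraries for their false discovery rate. In all 6 pairs the mice carried the same alleles.

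Each list was a single table for its group, with positions, annotation and gene but no read counts, so the depth behind a peak is unknown and no spread between mice could be computed. Wilson 95% intervals over peaks or genes are given where useful and cover counting error only. Differences between the marks were instead tested over the 6 pairs of lists: an exact permutation test, two-sided, flipped the sign of the difference in every possible way, and it cannot give a p under 0.0312. The absence of a gene from a list says that no peak was called and assigned there, not that the mark was absent. One list had a feature that bears on chromosome values: H4K8ac peaks of sedentary left hippocampus had median widths of 1382.5 to 1631 bp on chromosomes 1 to 14 and of 1162 to 1212 bp on chromosomes 15 to 19, without overlap. Of the 12 lists, 1 was separated at this place, but others had steps elsewhere: H3K27me3 of exercised right hippocampus had medians of 2867.5 to 3329.5 bp on chromosomes 1 to 12 and of 2073.5 to 2357 bp on 13 to 19, and H4K8ac of exercised SIT samples had medians of 1639 to 1941 bp on chromosomes 1 to 17 and of 1465 and 1410.5 bp on 18 and 19. H4K8ac of exercised left hippocampus had 43 peaks on chromosome 19 (0.700 per Mb, median width 2578 bp) and 1 on X. Values for chromosomes 1 to 14 alone are given where the step bears on a result, and they do not remove the step at chromosome 13. All of these lists enter the tests.

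The base content of the places described below is shown by 7 windows of 300 bases each from the GRCm38 genome (RefSeq), plus strand, with CpG dinucleotides in capitals. They were chosen to show a place under both marks, a gene that carried the marks apart, and the genes with the widest coverage by a single mark. Each window is the centre of an overlap or of the widest peak that the lists call promoter, and all of them lie in introns of the named gene.
Mir124-2hg, both marks (chr3:17790849-17791148): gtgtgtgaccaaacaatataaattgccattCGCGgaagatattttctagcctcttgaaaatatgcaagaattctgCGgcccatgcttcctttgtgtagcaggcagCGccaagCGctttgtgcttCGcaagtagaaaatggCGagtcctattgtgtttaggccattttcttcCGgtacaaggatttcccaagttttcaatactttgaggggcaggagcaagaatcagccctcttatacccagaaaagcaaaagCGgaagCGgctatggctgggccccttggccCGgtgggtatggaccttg
Tenm3, H4K8ac (chr8:48301054-48301353): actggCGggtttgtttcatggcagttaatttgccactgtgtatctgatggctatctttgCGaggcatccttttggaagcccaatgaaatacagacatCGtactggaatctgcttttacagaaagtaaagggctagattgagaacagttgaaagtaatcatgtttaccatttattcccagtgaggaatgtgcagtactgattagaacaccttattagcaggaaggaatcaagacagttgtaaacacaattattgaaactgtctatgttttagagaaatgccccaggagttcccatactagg
Tenm3, H3K27me3 (chr8:48839893-48840192): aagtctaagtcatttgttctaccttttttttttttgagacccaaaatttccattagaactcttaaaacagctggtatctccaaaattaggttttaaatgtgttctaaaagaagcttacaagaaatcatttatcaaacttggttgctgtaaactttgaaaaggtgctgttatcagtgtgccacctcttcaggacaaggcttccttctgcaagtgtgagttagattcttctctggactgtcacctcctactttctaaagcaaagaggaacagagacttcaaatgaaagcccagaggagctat
Celf2, H4K8ac (chr2:7082235-7082534): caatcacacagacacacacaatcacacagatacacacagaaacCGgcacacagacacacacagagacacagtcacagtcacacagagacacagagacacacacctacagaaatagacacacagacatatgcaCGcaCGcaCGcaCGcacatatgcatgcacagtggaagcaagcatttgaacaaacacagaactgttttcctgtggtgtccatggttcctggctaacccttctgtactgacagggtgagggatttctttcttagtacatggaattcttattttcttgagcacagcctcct
5730522E02Rik, H4K8ac (chr11:26074459-26074758): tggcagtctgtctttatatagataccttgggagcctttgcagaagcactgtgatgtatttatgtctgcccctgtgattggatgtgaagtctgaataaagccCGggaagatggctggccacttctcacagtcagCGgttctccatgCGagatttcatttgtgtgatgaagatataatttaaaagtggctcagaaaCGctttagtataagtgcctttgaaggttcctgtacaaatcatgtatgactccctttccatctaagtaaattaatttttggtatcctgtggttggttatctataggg
Ptprm, H3K27me3 (chr17:66954897-66955196): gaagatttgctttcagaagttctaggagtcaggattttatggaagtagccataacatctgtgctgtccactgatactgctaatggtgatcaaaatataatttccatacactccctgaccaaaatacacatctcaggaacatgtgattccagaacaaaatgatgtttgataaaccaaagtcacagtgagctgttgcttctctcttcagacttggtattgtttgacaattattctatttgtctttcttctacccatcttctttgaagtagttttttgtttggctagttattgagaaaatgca
Sox6, H3K27me3 (chr7:116028267-116028566): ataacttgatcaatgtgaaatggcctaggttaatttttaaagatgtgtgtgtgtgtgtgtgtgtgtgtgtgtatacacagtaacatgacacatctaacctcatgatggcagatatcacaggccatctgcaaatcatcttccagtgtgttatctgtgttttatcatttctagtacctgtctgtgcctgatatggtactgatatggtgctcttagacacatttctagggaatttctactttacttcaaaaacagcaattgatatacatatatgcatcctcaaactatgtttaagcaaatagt
The overlap at Mir124-2hg, a host transcript of the neuronal microRNA miR-124, held 11 CpG in its central 300 bases. The central windows of the 3 longest overlaps held 2 to 11 CpG, and 1 of these is printed. The 3 windows under H4K8ac alone held 3 to 5 CpG, and the windows under H3K27me3 alone, in Tenm3, Ptprm and Sox6, held 0. These few windows give no order of the marks by CpG. Their GC content was 40% at the H4K8ac peak of Tenm3, 46.7% at Celf2, 41.3% at 5730522E02Rik, 37% at the H3K27me3 peak of Tenm3, and 36% at both Ptprm and Sox6.

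Most genes in the lists carried a single mark. H4K8ac was listed alone at 8367 genes, 64.2% of the 13035 genes in either list, H3K27me3 alone at 2814 genes (21.6%), and both marks at 1854 genes (14.2%). The shared genes were 18.1% (95% interval 17.4 to 18.9) of the H4K8ac genes and 39.7% (38.3 to 41.1) of the H3K27me3 genes. Over all 21911 protein-coding symbols, the lists placed 32.2% under H4K8ac alone, 10.6% under H3K27me3 alone, 7.18% under both and 50% under neither. In the other pairs of lists the shared genes were 13.2% to 26.5% of the H4K8ac genes and 17.8% to 44.1% of the H3K27me3 genes, so the left sedentary pair lay inside the range for the former and near the top of it for the latter.

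Whether the marks met at a gene depended on how near to the gene a peak had to be. By assigned gene, 40.5% (38.9 to 42.0) of the 3886 protein-coding genes with H3K27me3 also had H4K8ac, against 39.4% of all protein-coding genes, so the share at genes with H3K27me3 lay close to the background. When peaks had to touch the gene body or the 3 kb on either side of it, the shares were 26.9% against 41.1%. With promoter peaks alone, which the lists define as within 3 kb of a transcript start, they were 11.8% against 26.3%. At the start site itself, H4K8ac covered 3 of 1607 H3K27me3-covered genes, or 0.187% (0.0635 to 0.547), against 13.0% of all protein-coding genes. By gene body, 37.2% of all protein-coding genes had H4K8ac alone, 10.6% H3K27me3 alone, 3.92% both and 48.2% neither. By start site, 13.0% had H4K8ac alone, 7.32% H3K27me3 alone, 0.0137% both and 79.7% neither. These shares are descriptions, and no test was run on them.

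**Figure D1:**
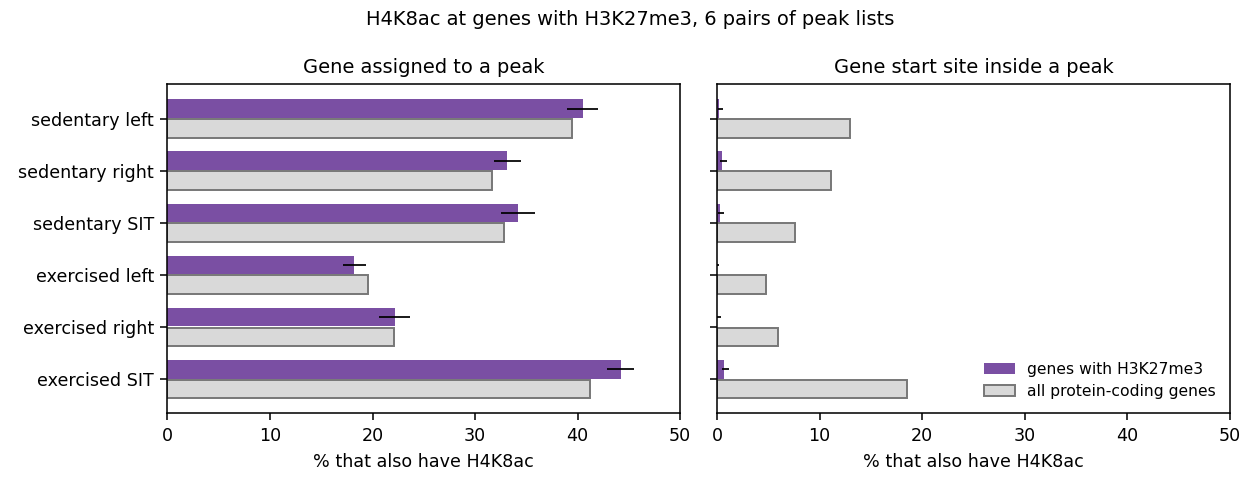
Share in percent (horizontal axis) of protein-coding genes with H3K27me3 that also had H4K8ac, (purple, with Wilson 95% intervals) beside the share of all protein-coding genes with H4K8ac (grey), for each of the 6 pairs of peak lists, by assigned gene (left) and by start site inside a peak (right). In sedentary left hippocampus the bars were near level by assigned gene (40.5% and 39.4%) and far apart at start sites (0.187% and 13.0%).

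The same pattern was read in each of the other pairs. By assigned gene, the share of H3K27me3 genes with H4K8ac was 33.1% against 31.6% of all protein-coding genes in sedentary right hippocampus and 34.1% against 32.8% in sedentary SIT samples. It was 18.2% against 19.6% in exercised left hippocampus, 22.1% against 22.1% in exercised right hippocampus, and 44.2% against 41.2% in exercised SIT samples. At start sites, the shares were 0.514% against 11.1%, 0.254% against 7.55%, 0 against 4.74%, 0 against 5.89%, and 0.703% against 18.5%, in the same order. The start-site share was thus far under the background in all 6 pairs, while the assigned-gene share stayed within 3 percentage points of it.

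The 3 start sites under both marks belonged to Lhx9, Matn3 and Pdyn. Lhx9 is a LIM-homeobox transcription factor, Matn3 encodes the matrix protein matrilin 3, and Pdyn encodes prodynorphin, the precursor of dynorphin opioid peptides. At Lhx9 (start at chr1:138848577, minus strand), an H4K8ac peak of 1844 bp lay inside an H3K27me3 peak of 4327 bp that ended 1 base beyond it. At Matn3 (start at chr12:8947929, plus strand), the peaks were 1362 and 3972 bp wide. At Pdyn (start at chr2:129699844, minus strand), they were 1159 and 2176 bp wide, and Pdyn was the gene of these 3 whose start lay under both marks again in sedentary SIT samples.

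At the 1854 genes with both marks, the peaks mostly stood apart. The nearest H4K8ac and H3K27me3 peaks of the same gene were a median of 19310.5 bp apart (quartiles 5980.75 and 51431 bp). They shared a base at 65 genes (3.51%), lay within 1 kb at 135 (7.28%) and within 10 kb at 637 (34.4%), and were over 100 kb apart at 212 (11.4%). Both marks had a promoter peak at 280 genes (15.1%). H4K8ac alone had a promoter peak at 594 (32%), H3K27me3 alone at 457 (24.6%), and neither at 523 (28.2%). At 882 genes (47.6%) at least 1 of the marks had distal intergenic peaks only, which the lists assign to the nearest gene.

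Even with promoter peaks of both marks, the start site was seldom shared. Among the 280 such genes the nearest promoter peaks were a median of 3779.5 bp apart and overlapped at 29 genes (10.4%). The start site lay in H4K8ac alone at 79 of them, in H3K27me3 alone at 76, in both at 3 and in neither at 122. Genes with both marks were also long: their median length was 42.4 kb, against 27 kb for genes with H4K8ac alone, 15.7 kb for genes with H3K27me3 alone and 17.4 kb for all protein-coding genes. Longer genes offer more room for peaks of either mark, and the part of length in the shared count was not tested.

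The genes with both marks and the widest coverage by the lesser mark included adhesion, signalling and transcription genes. Tenm3 encodes a teneurin, a synaptic adhesion protein, and spans chr8:48227682-48843951 on the minus strand. It had 19 H4K8ac peaks over 45499 bp and 24 H3K27me3 peaks over 86339 bp, with the nearest pair 6293 bp apart. Nav2, which encodes neuron navigator 2, had 18 H4K8ac peaks over 35687 bp and 9 H3K27me3 peaks over 36830 bp, no closer than 251807 bp. Mir124-2hg had 8 H4K8ac peaks over 33192 bp and 14 H3K27me3 peaks over 85728 bp, and of these 10 genes it was the 1 at which the marks overlapped. The transcription factor gene Foxp1 had 19 H4K8ac peaks over 33849 bp, 9 of them at promoters, and 9 H3K27me3 peaks over 31041 bp, of which 0 were at promoters. Rasgrp1, Mast4, E130114P18Rik, Tox, Spred2 and Grb14 completed the set, with the nearest peaks 6536 to 51040 bp apart.

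Places where peaks of the marks shared bases were few. There were 83, involving 83 H4K8ac peaks (0.228%) and 79 H3K27me3 peaks (0.545%), and they covered 74.7 kb in all, 0.113% of the H4K8ac bases and 0.101% of the H3K27me3 bases. Their length ranged from 6 to 4186 bp with a median of 859 bp, and at 11 places the overlap was at least 50% of each peak. The marks were given the same gene at 76 of the 83 places (91.6%). In the other pairs, 16 to 270 such places were found, and 33 of the 83 (39.8%) had a counterpart in at least 1 other pair.

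The 10 longest overlaps ran from 1576 to 4186 bp. Of these, 5 were annotated as promoter for both marks, and 7 had a counterpart in at least 1 other pair. Of the 10, 9 are named here. The longest, of 4186 bp at chr2:116072490-116076675, was annotated to a promoter of 2810405F15Rik for H4K8ac and to a promoter of G630016G05Rik for H3K27me3. The overlap at Mir124-2hg, at chr3:17789628-17792368 and 2741 bp long, was found in 3 other pairs. A distal overlap of 1973 bp assigned to Nr4a2, an orphan nuclear receptor gene, at chr2:57101388-57103360, was found in 0 other pairs. Overlaps of 2510 and 2488 bp were assigned to Sprr2a2, a member of a family of near-identical genes, so their position is uncertain. Other overlaps lay at Cradd, which encodes a death-domain adaptor (1874 bp), at Lhx9 (1844 bp), distal to Sox1ot, a transcript that overlaps Sox1 (1700 bp), and at Tns3, which encodes tensin 3 (1576 bp).

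The genes with the widest coverage by H4K8ac alone included several synaptic ones. All 10 were over 100 kb long, and 8 of them were over 500 kb. They had 47 to 125 H4K8ac peaks and 129505 to 252189 covered bases each. Celf2, an RNA-binding splicing regulator at chr2:6539694-7509563, had 125 peaks over 252189 bp, and 5730522E02Rik had 61 peaks over 170834 bp. Magi2 and Dlg2, scaffolds of the postsynaptic density, had 74 peaks over 151329 bp and 90 peaks over 140923 bp. Grik2, a kainate receptor subunit, had 67 peaks over 129838 bp, and Ppp3ca, the catalytic subunit of calcineurin, had 53 peaks over 129505 bp. St6galnac3, Snd1, Pcdh9 and Tenm2 were the others. Each had between 1 and 10 promoter peaks, so most of their peaks lay inside the genes or distal to them.

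Genes with the widest coverage by H3K27me3 alone carried fewer but broader peaks. The 10 had 18 to 62 peaks and 215126 to 393522 covered bases each. Ptprm, a receptor tyrosine phosphatase gene at chr17:66666947-67354457, had 53 peaks over 393522 bp. Sox6, a transcription factor gene of interneurons derived from the ganglionic eminence, had 62 peaks over 385562 bp. Ebf1, a transcription factor gene of B cells and striatal neurons, had 18 peaks over 368401 bp, the widest of them 101542 bp. Reln, the gene of the secreted protein reelin, and Erbb4, the neuregulin receptor gene, both typical of interneurons in the adult hippocampus, had 36 peaks over 277635 bp and 45 peaks over 270482 bp. A730082K24Rik, Mecom, Adra1b, Fign and Prkcq completed the set. Of the 10, 9 were over 100 kb long and 4 over 500 kb, and an order by covered bases favours long genes for either mark.

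The labelled cell type was read from marker lists. Of 28 excitatory neuron and synapse genes, 22 had H4K8ac alone, 3 had both marks, 0 had H3K27me3 alone and 3 had neither. Snap25, a SNARE protein gene, had 12 H4K8ac peaks over 25618 bp, and Gria2, an AMPA receptor subunit gene, had 37 over 94311 bp. Camk2a had 3 H4K8ac peaks over 3624 bp, the nearest 4836 bp from its start. The 3 genes with both marks were Shank2, Rbfox1 and Thy1. Their H3K27me3 peaks were 18323, 112274 and 85275 bp from the start, respectively. At start sites the list counted 7 genes (25%) with H4K8ac and 0 with H3K27me3, against 13.0% and 7.32% of all protein-coding genes. The markers thus lay on the H4K8ac side, against 32.2% of all protein-coding genes with H4K8ac alone.

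Forebrain excitatory transcription factors stood on the same side. Of 25, 16 had H4K8ac alone, 7 both, 2 H3K27me3 alone and 0 neither, against 32.2%, 7.18%, 10.6% and 50% of all protein-coding genes. At start sites, 6 (24%) had H4K8ac, 2 (8%) H3K27me3 and 17 (68%) neither, against 13.0%, 7.32% and 79.7%. Bcl11a, a zinc-finger factor of projection neurons, had 21 H4K8ac peaks over 107676 bp, and Tcf4, a basic helix-loop-helix factor, had 71 over 127096 bp. Emx1, the gene whose Cre allele marks these cells, had 3 H4K8ac peaks over 5951 bp and a single H3K27me3 peak of 1545 bp at 20952 bp from its start. Prox1, the dentate granule cell factor, had 3 H4K8ac peaks over 3173 bp and 23 H3K27me3 peaks over 92750 bp. Cux1 and Cux2, factors of upper-layer cortical neurons, had H3K27me3 alone, over 134926 and 35198 bp.

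Developmental regulators of other lineages lay on the H3K27me3 side. Of 40 such transcription factors, 30 had H3K27me3 alone, 8 had both, 0 had H4K8ac alone and 2 had neither, and H3K27me3 covered the start site of 38. Over all protein-coding genes, 10.6% had H3K27me3 alone, 7.18% both and 7.32% a start site under H3K27me3 alone. Nkx6-1, a factor of the ventral neural tube, and Otx2, a factor of the anterior neural plate, had 12 H3K27me3 peaks each, over 111351 and 96047 bp. Pax2, Pax7 and Pax9 had 5, 6 and 3 peaks over 68010, 50123 and 58324 bp. Of the 8 with both marks, Pax3 had 14 H3K27me3 peaks over 162604 bp and its single H4K8ac peak was 299913 bp from its start. Foxa2 had 13 over 87393 bp and 4 H4K8ac peaks no closer than 75632 bp. H4K8ac covered 0 start sites of the list, and the nearest H4K8ac peaks of the 8 genes were 27971 bp (Tbx5) to 299913 bp (Pax3) from the start. At Tbx5 that peak was the 1 case in the list of both marks within the gene body or 3 kb of it.

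At the Hox clusters, the assigned genes understated the coverage. Only 8 of 39 Hox genes were named in the H3K27me3 list and 31 in neither, because the lists give each peak a single gene, yet 38 of the 39 start sites lay in an H3K27me3 peak. Over all protein-coding genes, 10.6% had H3K27me3 alone and 50% neither, and 7.32% had a start site under H3K27me3 alone. H3K27me3 covered 99.2% of HoxA (chr6:52155590-52260880), 90.9% of HoxB (chr11:96194316-96368256), 100% of HoxC (chr15:102921103-103036852) and 99.4% of HoxD (chr2:74668310-74765142). The HoxC cluster lay inside a single peak of 183681 bp that was assigned to Hotair, a noncoding RNA gene of the cluster, and was the widest of the list. H4K8ac had 0 peaks in any of these clusters, in each of the 6 H4K8ac lists. In the other 5 H3K27me3 lists, 76.1% to 100% of each cluster was covered.

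Markers of neurons other than excitatory ones lay mostly on the H3K27me3 side. Of 20 GABAergic interneuron markers, 9 had H3K27me3 alone, 4 both, 3 H4K8ac alone and 4 neither, with 15 start sites under H3K27me3 and 0 under H4K8ac, against 10.6% of all protein-coding genes with H3K27me3 alone and 7.32% by start site. Gad2, which encodes a GABA-synthesizing enzyme, lay under an H3K27me3 peak of 19045 bp, and Sst, the somatostatin gene, had 3 peaks over 24728 bp. Dlx2, a factor of interneuron precursors, counted as H4K8ac alone through 3 peaks at least 51347 bp away, while its start site lay in an H3K27me3 peak assigned elsewhere. Of 16 monoamine and cholinergic markers, 7 had H3K27me3 alone, 5 both, 1 H4K8ac alone and 3 neither, and 11 start sites lay under H3K27me3. Slc6a3, the dopamine transporter gene, had 5 H3K27me3 peaks over 40101 bp.

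Glial and vascular markers had no common class, and with 10 to 12 members a list their shares can be read only beside those of all protein-coding genes: 32.2% with H4K8ac alone, 10.6% with H3K27me3 alone, 7.18% with both and 50% with neither. Of 12 astrocyte markers, 3 had H4K8ac alone, 5 both, 1 H3K27me3 alone and 3 neither. Gfap, the astrocyte filament gene, had an H4K8ac peak of 1064 bp at its start, and Slc1a2, the glutamate transporter gene, had 12 over 24196 bp. Of 12 oligodendrocyte lineage markers, 5 had H3K27me3 alone, 2 H4K8ac alone, 1 both and 4 neither. Olig2 lay under 3 H3K27me3 peaks over 71787 bp, whereas Mbp, the myelin basic protein gene, had 17 H4K8ac peaks over 23879 bp. Of 12 microglia markers, 3 had H4K8ac alone, 2 H3K27me3 alone, 1 both and 6 neither, near those shares, and of 10 endothelial markers the counts were 2, 3, 2 and 3. At start sites, H4K8ac covered 2 astrocyte, 1 oligodendrocyte lineage, 0 microglia and 0 endothelial markers and H3K27me3 covered 3, 4, 1 and 3, against 13.0% of all protein-coding genes with H4K8ac alone and 7.32% with H3K27me3 alone. How much chromatin of these other cells the pull-down held was not tested.

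Activity-induced genes carried H4K8ac by assigned gene. Of 20, 17 had H4K8ac alone, 2 both, 0 H3K27me3 alone and 1 neither, against 32.2% of all protein-coding genes with H4K8ac alone. By gene body and its 3 kb flanks, 13 had H4K8ac alone, 1 H3K27me3 alone and 6 neither, against 37.2%, 10.6% and 48.2% of all protein-coding genes. Bdnf, which encodes the neurotrophin BDNF, had 15 H4K8ac peaks over 39740 bp, and Nr4a3, an orphan nuclear receptor gene, had 15 over 34727 bp. Fos and Arc had 1 H4K8ac peak each, 17559 and 3633 bp from the start. Jun and Egr2 were the genes with both marks: the H3K27me3 peak of Jun was 139016 bp from its start, whereas Egr2 had H3K27me3 at its start and its H4K8ac peak 51932 bp away. At start sites H4K8ac covered 3 of the 20 genes (15%), close to the 13.0% of all protein-coding genes.

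By assigned gene, housekeeping genes were in neither list at 60%, against 50% of all protein-coding genes. The genes of the writers and readers of the marks were at 47.8% (Polycomb and H3K27 enzymes) and 47.6% (acetylation), close to that background. By gene body and its 3 kb flanks, the shares with neither were 45%, 52.2% and 33.3% in the same order, against 48.2%. Those with H4K8ac alone were 50%, 39.1% and 57.1%, against 37.2%. Of 20 housekeeping genes, 12 had neither mark, 7 H4K8ac alone, 1 H3K27me3 alone and 0 both. H4K8ac covered 3 start sites (15%), close to the 13.0% of all protein-coding genes. The gene with H3K27me3 alone was Rab7, which encodes an endosomal GTPase, and its nearest peak was 1429 bp from the start. Of 23 Polycomb and H3K27 enzyme genes, 11 had neither, 9 H4K8ac alone (Ezh2, the methyltransferase, with 3 peaks over 3019 bp), 2 H3K27me3 alone (Jarid2 among them) and 1 both (Cbx8). Of 21 acetylation enzyme and reader genes, 10 had neither, 8 H4K8ac alone, 1 H3K27me3 alone and 2 both. At start sites H4K8ac covered 3 Polycomb genes (13.0%) and 6 acetylation genes (28.6%), against 13.0% of all protein-coding genes. Hdac2, a deacetylase gene, had 2 H4K8ac promoter peaks, and Kat2b, an acetyltransferase gene, had 3 H3K27me3 peaks over 18161 bp. By assigned gene, the housekeeping share with H4K8ac alone, 35%, was close to the background of 32.2%.

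Of 30 WNT and BMP family ligands, 13 had H3K27me3 alone, 10 H4K8ac alone, 7 both and 0 neither. The share with H4K8ac alone, 33.3%, was close to the 32.2% of all protein-coding genes, of which 10.6% had H3K27me3 alone and 7.18% both. At start sites H3K27me3 covered 17 of them and H4K8ac covered 1, against 7.32% and 13.0% of all protein-coding genes. Bmp7 had 6 H3K27me3 peaks over 31084 bp, with its H4K8ac peak 76006 bp from the start, and Wnt7b had 3 H4K8ac peaks over 5217 bp. Of 7 CDK inhibitors, 3 had H3K27me3 alone, 2 H4K8ac alone and 2 neither, and Cdkn2a, the INK4A and ARF locus, had 2 H3K27me3 peaks over 64006 bp.

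**Figure D2:**
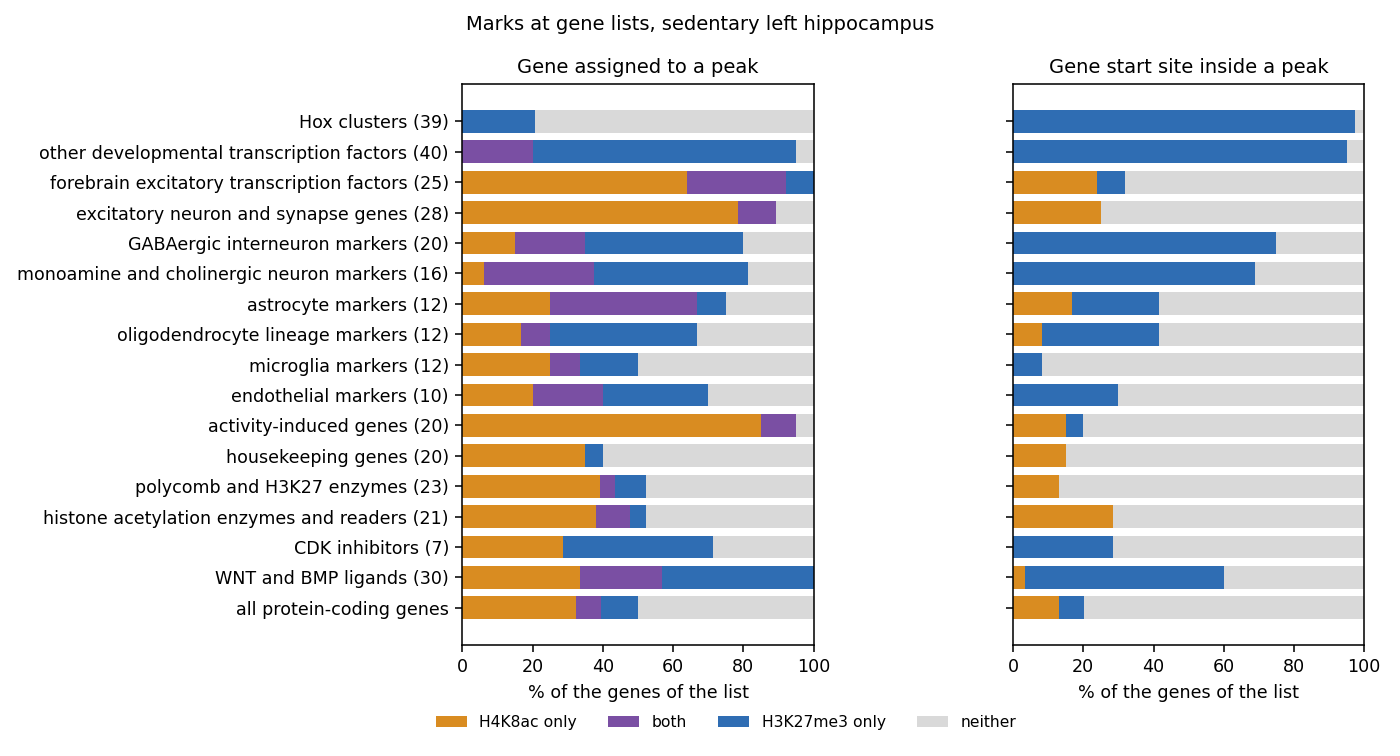
Percent of the members of each of 16 gene lists (horizontal axis) with H4K8ac alone, both marks, H3K27me3 alone or neither in sedentary left hippocampus, by assigned gene (left) and by start site inside a peak (right), with all protein-coding genes at the bottom. H4K8ac alone took 22 of 28 synapse genes and 17 of 20 activity-induced genes, and by start site H3K27me3 took 38 of 39 Hox genes and 38 of 40 other developmental factors.

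The marks differed in where in the genome their peaks lay, and 6 of the 7 annotation classes tested differed in the same direction in all 6 pairs of lists (85.7% of the classes). Peaks in introns after the first made up 27.3% (26.9 to 27.8) of H4K8ac peaks and 12% (11.5 to 12.6) of H3K27me3 peaks. The mean difference over the pairs was 13.6 percentage points (range 11.6 to 17.0, n = 6, exact permutation p = 0.0312, adjusted p = 0.0365). Distal intergenic peaks were 26.0% of H4K8ac and 44.9% of H3K27me3 peaks, a mean difference of -16.6 points (range -20.0 to -10.4, exact permutation p = 0.0312, adjusted p = 0.0365). H4K8ac was thus weighted to the body of genes and H3K27me3 to the space between them.

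Smaller classes followed, each with the same exact p of 0.0312 and adjusted p of 0.0365. First introns held 11.7% of H4K8ac and 8.19% of H3K27me3 peaks, exons 7.46% and 11.0%, 3′ untranslated regions 2.84% and 2.01%, and 5′ untranslated regions 0.368% and 0.662%. Promoter shares were 24.3% (23.9 to 24.8) for H4K8ac and 21.3% (20.6 to 21.9) for H3K27me3. The promoter difference averaged 2.74 points over the pairs, was positive in 5 of 6, and did not pass the test (exact permutation p = 0.219, adjusted p = 0.219). Counted in bases instead of peaks, promoters made up 24.8% of H4K8ac and 31.4% of H3K27me3 coverage, so the order turned. That difference averaged -7.10 points over the pairs and passed the test (exact permutation p = 0.0312, adjusted p = 0.0312). H4K8ac promoter peaks covered the annotated transcript start in 49.0% of cases and H3K27me3 promoter peaks in 66.3%.

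**Figure D3:**
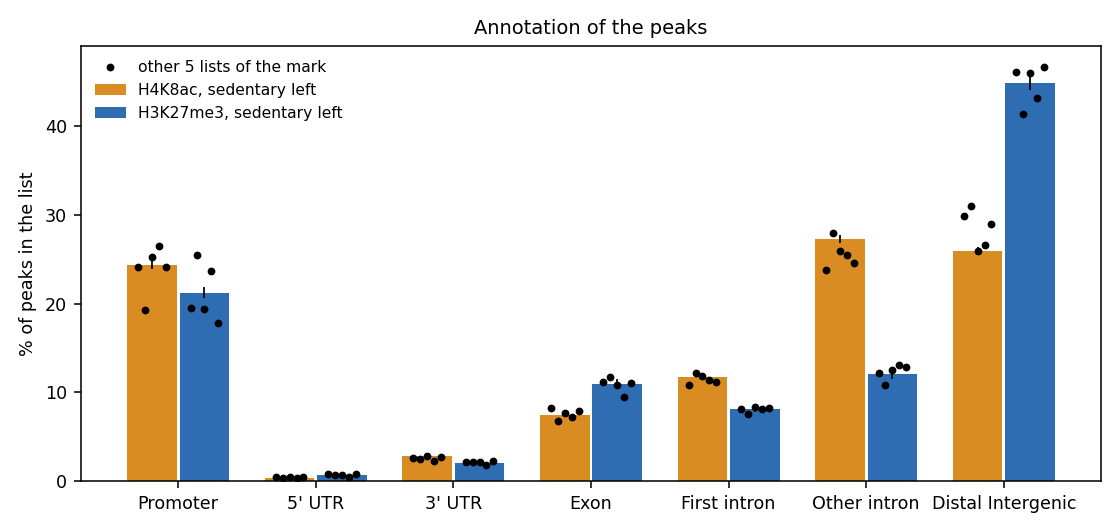
Percent of peaks in each annotation class (vertical axis) for H4K8ac and H3K27me3 of sedentary left hippocampus (bars, with Wilson 95% intervals as lines) and for the other 5 lists of each mark (points). Other introns favoured H4K8ac (27.3% against 12%) and distal intergenic space favoured H3K27me3 (44.9% against 26.0%), with the same order in every pair.

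H3K27me3 peaks were wider. The median width was 1453 bp for H4K8ac and 3341 bp for H3K27me3, a log2 ratio of -1.20. Over the pairs the mean log2 ratio was -1.03 and its sign was the same in 6 of 6, but after adjustment over the 4 measures of its family the exact permutation p of 0.0312 became 0.0833 and did not pass. That p is the smallest the test can give, so whether width passed depended on the other measures of the family. Peaks of at least 5 kb were 2.12% of H4K8ac and 27.9% of H3K27me3 peaks, and those of at least 20 kb numbered 5 and 361. The latter held 0.176% of the H4K8ac bases and 16.3% of the H3K27me3 bases. The widest H4K8ac peak, of 25489 bp, was assigned to A830018L16Rik. In total H4K8ac covered 65.9 Mb (2.42% of the genome) and H3K27me3 73.9 Mb (2.71%), so fewer peaks of H3K27me3 covered slightly more sequence.

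Over all peaks, base composition was nearly the same for both marks. The median GC content of peaks was 43.8% for each, and the mean difference over the pairs was -0.03 percentage points (exact permutation p = 1, adjusted p = 1). The pairs went both ways, from -1.49 to 0.82 points. Median observed over expected CpG was 0.216 for H4K8ac and 0.208 for H3K27me3. The mean CpG difference over the pairs, 0.0141, was positive in 5 of 6 and did not pass (exact permutation p = 0.0625, adjusted p = 0.0833). Among promoter peaks alone, CpG was 0.335 for H4K8ac and 0.282 for H3K27me3 and the mean difference over the pairs was 0.0724 (exact permutation test, adjusted p = 0.0417). The median GC content of promoter peaks was 48.0% and 47.2%, higher for H4K8ac in every pair, and that difference passed as well.

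By chromosome, the marks were spread unequally. Density is given as kb covered per Mb of chromosome, and the test used the log2 ratio of the chromosome's share of all H4K8ac bases to its share of all H3K27me3 bases, which removes the length of the lists. It passed on 15 of the 20 chromosomes tested (75.0%), with 7 richer in H4K8ac and 8 richer in H3K27me3, each by exact permutation over the pairs with adjusted p = 0.0417. Of these, chromosome 14 was lost when peaks per Mb were used (exact permutation test, adjusted p = 0.208) and chromosome 15 with the widest 50% of each list (adjusted p = 0.0833), whereas chromosome 4 passed with peaks per Mb (adjusted p = 0.0391) and within chromosomes 1 to 14 (adjusted p = 0.0337), and chromosome 18 with peaks per Mb (adjusted p = 0.0391). The densities ranged over the autosomes from 11.9 to 35.7 kb per Mb for H4K8ac, highest on chromosome 3, and from 16.0 to 46.1 for H3K27me3, highest on chromosome 11.

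The highest H4K8ac to H3K27me3 ratios of density were on chromosome 12 (34.1 and 22.3 kb per Mb, ratio 1.53) and chromosome 1 (29.9 and 20.2, ratio 1.48). Their mean log2 ratios of shares over the pairs were 0.80 and 0.69, positive in 6 of 6 (exact permutation p = 0.0312, adjusted p = 0.0417). Over the 6 pairs the highest mean was that of chromosome 15, 0.95 (exact permutation p = 0.0312, adjusted p = 0.0417), whose density ratio in sedentary left hippocampus, 1.12, lies in the range of narrower H4K8ac peaks. Chromosome Y, with 1 H4K8ac and 3 H3K27me3 peaks, was left out. Among chromosomes 1 to 19 and X, the lowest density ratios were on the X chromosome (0.335 and 1.05 kb per Mb, ratio 0.318) and chromosome 17 (11.9 and 33.1, ratio 0.361). Chromosome 17, with a mean log2 ratio of -0.90, passed in the exact permutation test (adjusted p = 0.0417), and it lies in the range of narrower H4K8ac peaks. Within chromosomes 1 to 14, the lowest ratio was on chromosome 8 (26.9 and 44.3, ratio 0.608), where the mean log2 ratio was -0.66 (exact permutation p = 0.0312, adjusted p = 0.0417). Chromosomes 7 and 11 followed in sedentary left hippocampus, with density ratios of 0.659 and 0.672. In each of the other 5 pairs chromosome 7 was the lowest of chromosomes 1 to 14, with ratios of 0.149 to 0.337, and its mean log2 ratio of shares over the 6 pairs, -0.94, was the most negative of the 20 chromosomes tested (exact permutation p = 0.0312, adjusted p = 0.0417).

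Values for chromosomes 15 to 19 rest on the H4K8ac list whose peaks narrowed there. H4K8ac covered 29.3 kb per Mb of chromosomes 1 to 14 and 15.5 kb per Mb of chromosomes 15 to 19, a ratio of 0.529, against 0.773 to 0.911 in the other 5 H4K8ac lists. H3K27me3 of the same mice covered 31.4 and 23.1, a ratio of 0.734, with median widths of 3336 and 3401 bp. The H3K27me3 list of exercised right hippocampus, which enters the tests, had a ratio of 0.519. Chromosome 19, among those that passed, had log2 ratios of shares from -2.38 to -0.242 over the pairs. The lowest was that of exercised left hippocampus, with 43 H4K8ac peaks there. With chromosomes 1 to 14 alone, 13 of 14 passed the test. Whether the step between chromosomes 14 and 15 arose in the nuclei or in the making of the list was not tested.

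The X chromosome carried few peaks of either mark. It had 51 H4K8ac and 51 H3K27me3 peaks, 0.298 per Mb each, against 14.8 and 5.86 per Mb over the autosomes. Over the 12 lists the X count ranged from 1 to 136 peaks, so its ratio rests on few peaks. The log2 ratio of shares on X had the same sign as its mean of -0.48 in 3 of 6 pairs and did not pass (exact permutation p = 0.625, adjusted p = 0.658). Without exercised left hippocampus, which had 1 H4K8ac peak on X, the mean turned positive. Syn1, a synaptic vesicle gene, and the housekeeping genes Hprt and Pgk1 lie on this chromosome and were in neither list.

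Gene density went with the marks in opposite directions. Across the 19 autosomes, Spearman's rho with protein-coding genes per Mb was -0.34 for H4K8ac density and 0.54 for H3K27me3 density, and -0.71 for their ratio. With chromosomes 1 to 14 alone it was -0.81 for the ratio, and in the other pairs it was -0.88 to -0.80 over the autosomes. The densities of the marks had a rho of 0.26 with each other over the autosomes, but of -0.08 over chromosomes 1 to 14, and of -0.31 to 0.02 over the autosomes in the other pairs, so its sign was not stable. These are descriptions across chromosomes of the same libraries, whose points share depth and list.

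**Figure D4:**
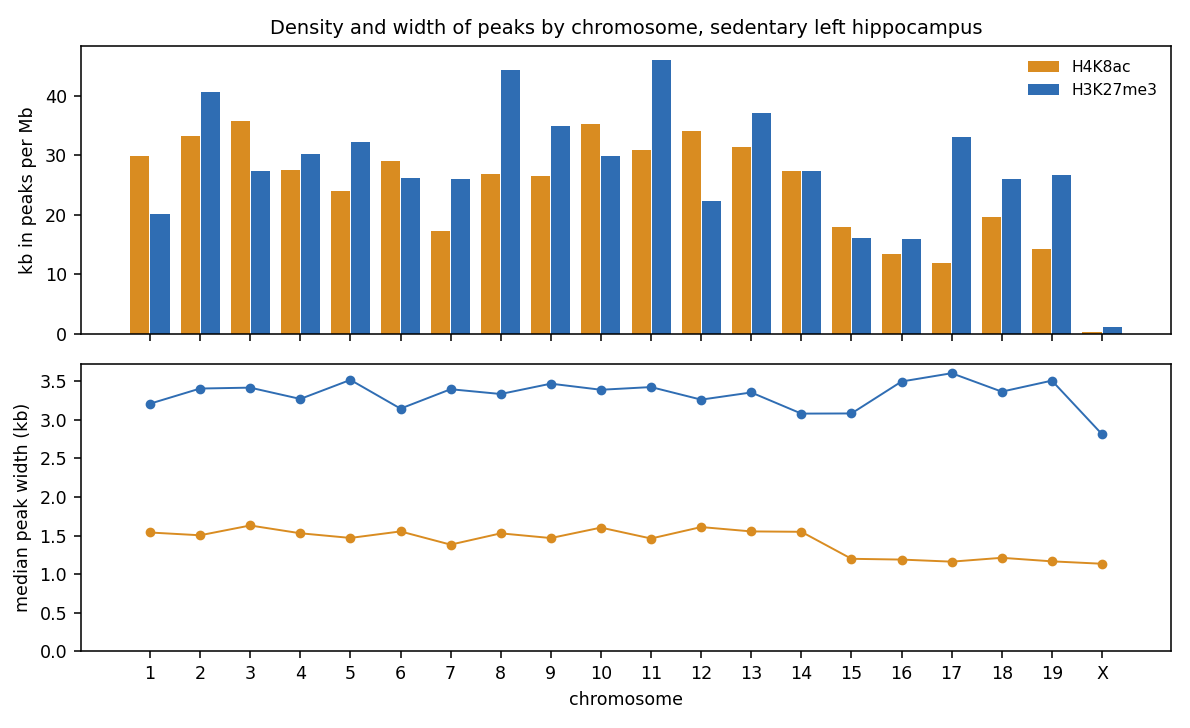
Density in kb covered by peaks per Mb (top) and median peak width in kb (bottom) of H4K8ac and H3K27me3 on chromosomes 1 to 19 and X in sedentary left hippocampus. Of these, H4K8ac stood highest over H3K27me3 on chromosomes 12 and 1 (ratios 1.53 and 1.48) and lowest on X and 17 (0.318 and 0.361), and its peaks were narrower from chromosome 15 on.

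The marks kept their distance. From an H4K8ac peak to the nearest H3K27me3 peak the median distance, edge to edge, was 289 kb (quartiles 121 and 654), and from an H3K27me3 peak to the nearest H4K8ac peak it was 100 kb (41.7 and 219). The nearest peak of the same mark lay at a median of 6.27 kb for H4K8ac and 4.51 kb for H3K27me3. Within 10 kb, 2.56% of H4K8ac peaks had an H3K27me3 peak and 59.2% another H4K8ac peak, while 7.03% of H3K27me3 peaks had an H4K8ac peak and 64.9% another H3K27me3 peak. Within 500 kb, 67.3% of H4K8ac and 92.4% of H3K27me3 peaks had a peak of the other mark. Each mark was therefore close to itself and far from the other.

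The distance was shortest at promoters. Promoter H4K8ac peaks lay a median of 171 kb from H3K27me3, with 5.67% within 10 kb, and H4K8ac peaks in introns after the first a median of 383 kb, with 0.865% within 10 kb. Promoter H3K27me3 peaks lay a median of 60.4 kb from H4K8ac, with 12.7% within 10 kb. The share within 10 kb of the other mark differed by a mean of -2.45 points (H4K8ac minus H3K27me3) over the pairs, negative in 5 of 6, and did not pass (exact permutation p = 0.0625, adjusted p = 0.0833). The lists differ in length, 36425 against 14491 peaks, and the part of length in this difference was not tested.

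**Figure D5:**
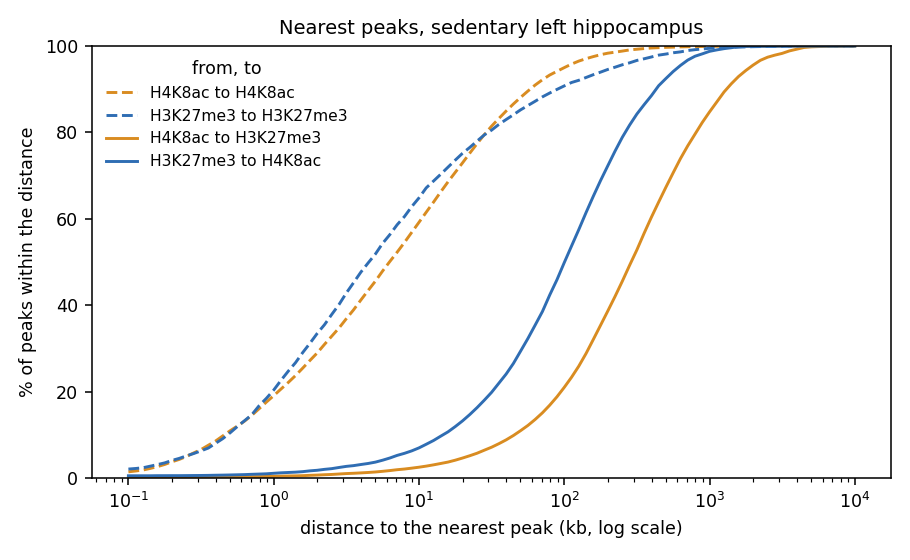
Cumulative percent of peaks (vertical axis) against the distance to the nearest peak of the other mark and of the same mark in kb (log axis; solid lines to the other mark, dashed to the same), for sedentary left hippocampus. At 10 kb the lines to the other mark stood at 2.56% and 7.03%, and those to the same mark at 59.2% and 64.9%.

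Along the chromosomes the marks came in runs. Of 50895 neighbouring pairs of peaks, 44773 (88.0%) were of the same mark. H4K8ac made up 71.5% of all peaks, and the peak after an H4K8ac peak was H4K8ac in 91.6% of cases. After an H3K27me3 peak it was H3K27me3 in 78.9%. The share of neighbours of the same mark was 85.0% to 88.0% in the other pairs of lists. Runs of H4K8ac held a mean of 11.9 peaks and runs of H3K27me3 a mean of 4.72, an order that turned in exercised left hippocampus (5.91 against 8.85), where H3K27me3 was the longer list. The longest H4K8ac run had 290 peaks over 12.8 Mb at chr3:70035233-82857182 and 35 genes, Slitrk3, Bche and Serpini1 among them. The longest H3K27me3 run had 103 peaks over 1.86 Mb at chr17:66578569-68436253 and held Ptprm, Lama1 and L3mbtl4. The next, of 101 peaks at Wwox and Maf on chromosome 8, covered 836 kb of its 1.28 Mb.

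The class of a gene was then looked up in the other 5 pairs of lists, which came from other mice. Of the 8367 genes with H4K8ac alone, 64.4% had H4K8ac alone again in sedentary right hippocampus, 68.4% in sedentary SIT samples and 44.8% to 74.3% in the exercised pairs, and 2334 (27.9%) did so in all 5. The corresponding shares for the 2814 genes with H3K27me3 alone were 86.4%, 68.7% and 66.7% to 87.4%, with 1334 (47.4%) in all 5. The class with both marks was kept by 67.9% and 53.1% in the sedentary pairs and by 33.8% to 81.0% in the exercised pairs. In all 5 it was kept by 310 of 1854 genes (16.7%), a lower share than in the classes with a single mark. Where the class changed, it was mostly to no mark or to both: 396 (4.73%) of the H4K8ac genes and 142 (5.05%) of the H3K27me3 genes had the other mark alone in any pair.

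The same was counted for members of the gene lists. Of the developmental factors with H3K27me3 alone, 22 of 30 had it alone in all other 5 pairs, and of the excitatory transcription factors with H4K8ac alone, 13 of 16 did. The counts were 16 of 22 for synapse genes with H4K8ac alone, 10 of 17 for activity-induced genes with H4K8ac alone and 5 of 9 for GABAergic markers with H3K27me3 alone. Among further lists, H4K8ac-only members counted 3 of 10 for WNT and BMP ligands, 3 of 7 for housekeeping genes, 0 of 9 for Polycomb genes, 0 of 2 for CDK inhibitors and 1 of 1 for monoamine and cholinergic markers. Over all genes the shares were 27.9% with H4K8ac alone and 47.4% with H3K27me3 alone, and several of these counts lie near them. Of members with both marks, at most 2 in any list kept both in all 5. The differences between lists were not tested. The other mark alone was seen in at least 1 other pair for Cdh5, Nptx2, Phf19, Cdkn1a, Wnt2, Wnt5b, Wnt7a and Gdf10, all of which had H4K8ac alone in sedentary left hippocampus.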

How the data were processed

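CUT&RUN libraries of H4K8ac, H3K27me3 and IgG came from 18 groups with 60 samples in all, and the 12 peak lists of the marks were used here. Per the labels and the study's methods, the authors aligned reads to mm10 with Bowtie2 2.4.1 after quality control with FastQC 0.11.9, called peaks with SEACR (stringent, 0.01) and annotated them with ChIPseeker 1.8.6, with promoters set as 3 kb on either side of a transcript start and a single gene per peak. Libraries with a high false discovery rate were excluded by the authors, which touched exercised H4K8ac alone. How libraries were combined into a list is not given in the sources used here. The deposited lists hold peak positions, widths in bp, annotation and gene, with no counts or signal, and 0 columns belong to samples of another series.

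Widths, distances, overlaps and densities were computed from these positions with Python 3.11.15, numpy 2.4.6, pandas 2.3.3 and scipy 1.17.1. Positions of 21911 protein-coding symbols came from GENCODE M21 and base composition from GRCm38 (RefSeq), which share the build of the lists. Of 13035 symbols, 12777 (98.0%) were found there, and the first entry of a repeated symbol was used. Over the 6 pairs of lists, exact two-sided sign-flip permutation tests were run and adjusted by the Benjamini-Hochberg method within families of 7 annotation classes, 20 chromosomes and 4 other measures, with a threshold of 0.05. The distance and overlap steps and the test were tested on simulated data. Nothing says which library a peak came from, so p-values measure the spread between lists.

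The members, gene lists and measures were chosen with earlier results of these data known. Up to 6 members of each gene list per class in list order, the 10 genes with the widest coverage in each class, the 10 longest overlaps and the chromosomes with the 2 highest and 2 lowest ratios could be named, and other genes named were chosen after their values were seen. All 10 longest overlaps exceeded 300 bases and the shortest overlap had 6 bases, so the central 300 bases of the longest overlaps were shown in place of the shortest ones, and a simple repeat at 2810405F15Rik was left out. A few items that these rules would name are not reported here. Alternatives tried were other rules to assign genes, fewer or wider peaks, other units and other sets of lists.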

Additional observations from a re-analysis of the deposited data

Results flagged for a closer look

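Over the 6 pairs of lists, sedentary SIT samples stood apart from the others in a pair of differences between the marks. The promoter share of H4K8ac peaks minus that of H3K27me3 peaks was -6.18 percentage points there, whereas sedentary left hippocampus had 3.06 and the highest pair 6.29. The median GC content of H4K8ac peaks minus that of H3K27me3 peaks was -1.49 percentage points there, against 0.03 in sedentary left hippocampus. Each was singled out because its gap to the nearest other pair was large for the range of the 6 pairs. Chance singles out about 1 in 20 such groups, and the cause was not tested.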

How the results depend on the processing

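No paired analysis was possible because the lists carry no replicate numbers to block on, and the tests pair whole lists of the same group instead. With 5 pairs the exact permutation p cannot be under 0.0625, and with the 3 sedentary pairs not under 0.25, so neither setting says anything about stability. Leaving out each pair in turn gave 2.03 to 4.53 points for the promoter share, -0.326 to -0.277 for 5′ and 0.484 to 0.581 for 3′ untranslated regions, -3.58 to -3.03 for exons, 3.19 to 3.55 for first introns, 12.9 to 13.9 for other introns and -17.9 to -15.9 for distal peaks. It gave -3.05 to -2.05 points for the share within 10 kb, -1.09 to -0.88 for the log2 width ratio, 0.0126 to 0.0176 for CpG and -0.204 to 0.259 for GC, with the sign of GC turned without sedentary SIT samples (0.259). The sedentary pairs alone gave 0.497, -0.331, 0.545, -3.83, 3.60, 14.6 and -15.2 points in the same order, and 0 chromosomes past the threshold. The promoter difference turned to -7.10 points as a share of bases, past the threshold (exact permutation test, adjusted p = 0.0312), and to -3.67 with the widest 50% of each list, where the 3′ difference was 0.480 (exact permutation test, adjusted p = 0.0729). With promoter peaks only, the GC difference turned to 0.99, positive in every pair, and both it and the CpG difference, 0.0724, passed. The log2 ratio of chromosome 13, near 0, turned to 0.0315 with the widest 50% and to 0.00914 with chromosomes 1 to 14, and ranged from -0.0715 to 0.00682 when each pair was left out, with the sign turned without sedentary left, exercised left or exercised SIT samples. That of X ranged from -1.23 to 0.32 and turned without exercised left hippocampus. Chromosomes 1 to 14 alone, an alternative chosen after seeing the data, kept every annotation class on its side of the threshold.

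The gene counts depended on how peaks were tied to genes. Genes with H4K8ac alone numbered 4924 with at least 2 peaks of a mark, 4739 with equal numbers of the widest peaks and 2845 by start site. Genes with both numbered 280 with promoter peaks only, 972 without distal peaks, 530 with at least 2 peaks, 756 with the widest 50%, 1059 with equal numbers, 858 by gene body and 3 by start site. Genes with H3K27me3 alone numbered 1698 with at least 2 peaks and 1604 by start site. Places of overlap numbered 11 with a reciprocal overlap of 50%. The causes were not tested beyond what each alternative removes. Depth is unknown, so a missing peak sets no limit on the mark.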
